A study of Mus musculus with 4 samples.

Results

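The keratin family was followed through mouse molar development with 50 oligonucleotide probes, out of 41174 probes that were not controls, taken as every probe whose array gene name was a keratin number (Krt followed by a digit, with older names such as Krt2-1 for Krt1 brought up to date, and without keratin-associated proteins). These probes stood for 42 keratin genes of 27670 genes on the array, and 32 of the 42 were measured, against 17398 of all genes. A gene counts as measured if its brightest probe stood well above background in 1 or more of the 4 Cy5 channels or in 2 or more of the E14 channels. The genes were grouped by where each keratin is known to be made, into 6 simple keratins (5 measured), 3 basal keratins (all measured), 10 suprabasal and differentiation keratins (8 measured), 4 keratins of activated epithelium and appendages (all measured), 17 hair and nail keratins (12 measured) and 2 others (none measured). Krt20, Krt2, Krt78, Krt25, Krt26, Krt31, Krt82, Krt85, Krt42 and Krt222 were not measured. Their log2 ratios lay between -0.19 and 0.18 on all 4 arrays.

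Whole first molars of the mandible were pooled at embryonic day (E) 11, 12, 14, 16 and 18, all from C57BL/6 embryos with no other genotype or treatment named. On each of 4 two-colour arrays, Trizol-extracted RNA of E11, E12, E16 or E18 carried Cy5 and RNA of E14 carried Cy3, without a dye swap, so E14 was read 4 times and each other stage 1 time. The number of germs or litters per pool is not stated in the labels. A log2 ratio below is the named stage over E14 on 1 array, a level is a normalised log2 signal, and the SD of E14 over its 4 hybridisations is a technical spread. With 1 pool per stage no ratio of a single array could be tested, and the number of arrays limits the precision. Over all measured genes the SD of E14 had a median of 0.051 and a 95th percentile of 0.12 log2 units, and between 53.1% and 59.4% of spots were well above background in Cy5.

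Keratins are the intermediate filament proteins of epithelial cells. Each filament is built from pairs of a type I (acidic) and a type II (basic) chain, and which chains a cell makes depends on its kind of epithelium: Krt8 and Krt18 in simple, single-layered epithelia, Krt5 and Krt14 in the basal layer of stratified epithelia, and Krt1 and Krt10 or Krt4 and Krt13 in the layers above it. The molar germ has a dental epithelium, which buds from the oral lining and becomes the enamel organ, around and beside a mesenchyme that makes no or little keratin. By the array's annotation (mouse build mm7), 24 of the type I genes lay on chromosome 11 between bases 99343022 and 100374997, and all 17 type II genes lay on chromosome 15 between bases 101334310 and 101983131. Krt18, a type I gene, was the exception, at 102018067 to 102018126 on chromosome 15, beside its partner Krt8.

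The stretches just before the transcription start are shown for keratins the results turn on, since the family shares a feature there that the choice of members did not use. The 100 bases end at the base before the start given by RefSeq (GRCm38.p6), and capitals mark TATAA or ATAAA, alone or run together, where either begins 40 to 20 bases before the start on the gene's own strand.
Krt5 (chr15:101712906-101713005, minus strand): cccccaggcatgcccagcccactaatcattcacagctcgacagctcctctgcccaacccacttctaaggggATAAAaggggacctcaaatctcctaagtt
Krt14 (chr11:100206031-100206130, minus strand): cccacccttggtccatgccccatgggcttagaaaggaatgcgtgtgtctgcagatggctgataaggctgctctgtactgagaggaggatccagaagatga
Krt8 (chr15:102004343-102004442, minus strand): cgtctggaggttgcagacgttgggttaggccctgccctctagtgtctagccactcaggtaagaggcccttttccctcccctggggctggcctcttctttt
Krt18 (chr15:102028116-102028215, plus strand): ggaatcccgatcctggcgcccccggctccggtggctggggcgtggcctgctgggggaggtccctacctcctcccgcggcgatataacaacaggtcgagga
Krt10 (chr11:99389365-99389464, minus strand): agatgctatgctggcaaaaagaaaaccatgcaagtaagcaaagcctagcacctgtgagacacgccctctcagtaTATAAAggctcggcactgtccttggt
Krt13 (chr11:100121567-100121666, minus strand): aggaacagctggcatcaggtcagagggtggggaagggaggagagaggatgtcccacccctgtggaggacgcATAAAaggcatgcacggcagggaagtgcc
Krt75 (chr15:101573905-101574004, minus strand): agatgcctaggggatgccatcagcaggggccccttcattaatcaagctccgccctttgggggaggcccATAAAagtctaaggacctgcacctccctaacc
Krt28 (chr11:99374904-99375003, minus strand): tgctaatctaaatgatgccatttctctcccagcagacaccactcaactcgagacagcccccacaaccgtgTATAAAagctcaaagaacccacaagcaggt
Krt36 (chr11:100105627-100105726, minus strand): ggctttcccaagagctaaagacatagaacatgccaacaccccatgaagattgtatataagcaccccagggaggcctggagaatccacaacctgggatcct
Of the 42 keratin genes, 28 had a promoter in the RefSeq table (250 bases before to 50 after the start), 20 of them measured here. TATAA in that position was found in 13 of the 28 (46.4%), against 3.83% of 27025 promoters. With ATAAA allowed as well, a form added after the windows had been read, 20 of 28 keratin promoters (71.4%) and 6.14% of all promoters had a match. The members with a match included Krt5, Krt10, Krt13, Krt75 and Krt28. Those without one in that window included both simple partners Krt8 and Krt18, and Krt14 and Krt36. The Krt18 stretch does hold TATAA just past the near edge of the window, and the Krt36 stretch holds it beyond the far edge. CACCC, a core that factors of the KLF family can bind, was found on either strand of 89.3% of keratin promoters and 56.7% of all promoters, and GGGCGG, a core of Sp factor sites, in 7.14% and 35.9%. Shares were closer for CCAAT (39.3% and 37.9%), for the AP-2 core GCCNNNGGC (14.3% and 16.5%), for the AP-1 core TGANTCA (3.57% and 7.93%) and for the p53 family motif (10.7% and 8.37%). Such matches describe these letters in these windows, and TATAA and ATAAA can overlap each other.

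Simple, basal and activated keratins were low in the earliest germs, every class median stood above E14 at E16, and keratins differed from one another at E18. The simple, basal and activated classes had median log2 ratios of -1.56, -2.58 and -1.62 at E11 and of 0.33, 1.09 and 2.10 at E16. The suprabasal and hair medians were 0.023 and -0.081 at E11 and 0.80 and 0.34 at E16. The median over all measured genes was -0.016 at E11 and 0.0049 at E16. Krt4 (suprabasal) and Krt32, Krt33a, Krt33b, Krt34, Krt35 and Krt71 (hair) entered the measured set through E16 alone, a filter that favours high E16 values. For the 3 suprabasal and 2 hair keratins well above background in E14 on all 4 arrays, the E16 medians were 1.41 and 0.23. Among the 15 keratins well above background in all 5 stages, 13 (86.7%) were highest at E16, against 14.6% of 13641 genes seen that widely. Krt18 was highest at E14 (23.1% of all such genes) and Krt75 at E18 (23% of them). At E16, 8 of the 32 measured keratins (25%) stood at least 2-fold above all 4 other stages, against 0.201% of all genes. The 8 were Krt23, Krt15, Krt1, Krt4, Krt13, Krt6a, Krt6b and Krt16. Of these, Krt4 was measured through E16 alone, so E16 had to be its high stage. Fewer epithelial cells in a germ and less keratin RNA per cell cannot be told apart in such pools.

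**Figure D1:**
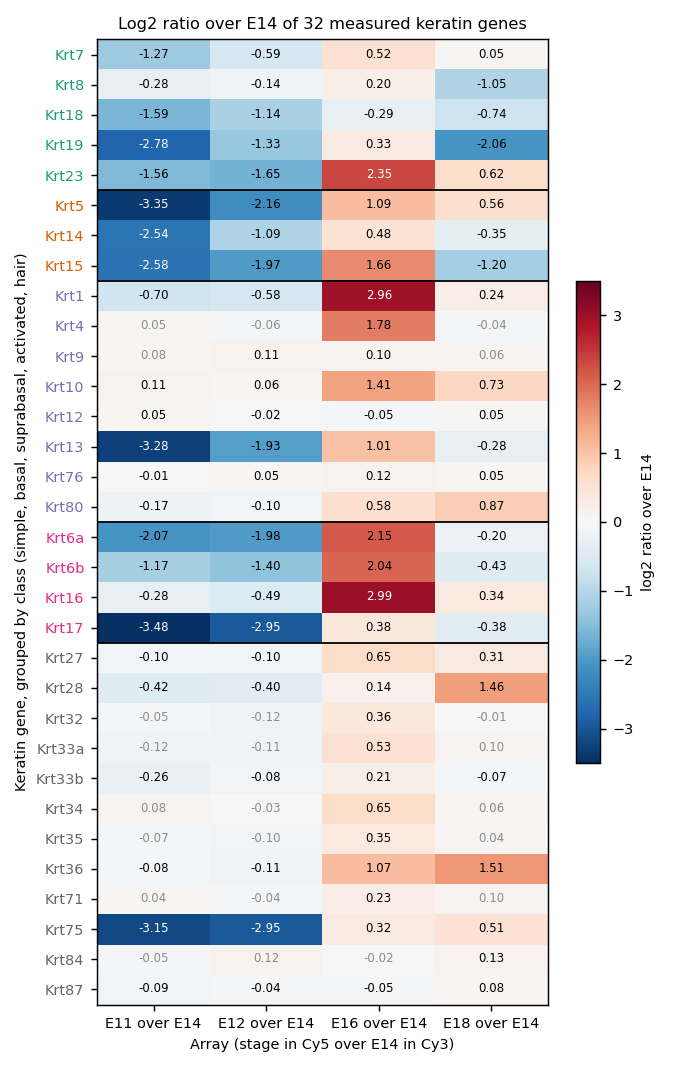
Log2 ratio over E14 of each of the 32 measured keratin genes (rows, grouped by class) on each of the 4 arrays (columns). Each stage has 1 array. Grey numbers mark genes well above background neither in Cy5 on that array nor in E14 on any of the 4 arrays. Some numbers not in grey, such as Krt36 at E12, are well above background in neither channel of their own array. The E11 and E12 columns hold the low values, down to -3.48 for Krt17, and the E16 column the high ones, up to 2.99 for Krt16.

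The basal keratins were low early relative to E14, with the lowest class median at E11 and E12 after loess. With the scanner's own log ratios the activated median was lower at E11 (-2.97, against -2.63 for the basal one) and at E12 (-2.76, against -1.97), as it was with median centring at E12 (-1.15, against -0.60). Krt5, the basal type II chain, had a level of 12.02 at E11, 13.22 at E12, 15.21 ± 0.21 at E14 (SD, n = 4 hybridisations), 16.02 at E16 and 15.73 at E18. It stood 10.2-fold below E14 at E11 and 4.48-fold below it at E12, and 2.12-fold above it at E16. Both late stages lay above each E14 hybridisation, the highest of which was 15.38. For Krt14, its usual type I partner, the levels were 11.92 at E11, 13.48 at E12, 14.53 ± 0.06 at E14, 14.97 at E16 and 14.25 at E18, which is 5.83-fold below E14 at E11 and 2.13-fold below at E12. Relative to E14, Krt5 was the more reduced of the pair at E11 and E12. At E18 the order was the other way, with Krt5 1.48-fold above E14 and Krt14 1.28-fold below it. Krt15, a type I chain of basal cells and of the hair follicle bulge, had levels of 10.17, 10.80, 12.81 ± 0.05, 14.48 and 11.67 at E11, E12, E14, E16 and E18. It was 3.16-fold above E14 at E16 and 2.29-fold below it at E18, so E18 lay 7.23-fold below E16. All 3 basal keratins were at least 2-fold below E14 at E11 and at E12, 2 of 3 (Krt5 and Krt15) were at least 2-fold above it at E16, and Krt15 was at least 2-fold below it at E18. The shares of all genes were 4.88%, 2.63% and 3.86% below at E11, E12 and E18, and 2.01% above at E16. With median centring none of the 3 was 2-fold below E14 at E12 (-0.60 for Krt5, -0.63 for Krt15 and 0.45 for Krt14).

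Simple keratins divided into those that were low early and Krt8, which was not. Krt8, the type II chain of simple epithelia, had levels of 10.30 at E11, 10.37 at E12, 10.52 ± 0.04 at E14, 10.71 at E16 and 9.43 at E18. Its 4 earlier stages spanned less than 2-fold, and E18 was the low one, 2.07-fold below E14 and 2.39-fold below E16. A second Krt8 probe gave the same log2 ratio of -1.05 at E18 and -0.34, -0.30 and 0.11 at E11, E12 and E16. Krt18, which pairs with Krt8, stood at 10.84, 11.31, 12.47 ± 0.04, 12.21 and 11.76 at E11, E12, E14, E16 and E18, and was 3.02-fold below E14 at E11. The difference of Krt8 minus Krt18 in log2 ratio was 1.32, 0.99, 0.50 and -0.32 at E11, E12, E16 and E18, so the type II chain was the less reduced of the pair early and the more reduced at E18.

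Krt19, a type I keratin without the usual tail, had the widest range of the simple class that was well above background in every stage. Its levels were 7.38 at E11, 8.79 at E12, 10.14 ± 0.02 at E14, 10.48 at E16 and 8.08 at E18. Both E11 and E18 lay far below the 4 E14 hybridisations, which ran between 10.12 and 10.16: by 6.88-fold at E11 and 4.18-fold at E18. Krt7, a type II keratin of ducts and glands, was 2.42-fold below E14 at E11 and within 1.51-fold of it at E12, E16 and E18, with a second probe at -1.01 (log2) against -1.27 at E11. Krt23, a type I keratin, was not well above background at E11 or E12, and was at least 2.74-fold and at least 3.14-fold lower there than at E14. At E16 it was 5.09-fold above E14 and at E18 1.53-fold above. In all, 4 of 5 simple keratins (all but Krt8) were at least 2-fold below E14 at E11, 3 at E12 (Krt18, Krt19 and Krt23) and 2 at E18 (Krt8 and Krt19), and 1 (Krt23) was at least 2-fold above it at E16. The shares of all genes were 4.88%, 2.63% and 3.86% below at E11, E12 and E18, and 2.01% above at E16.

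**Figure D2:**
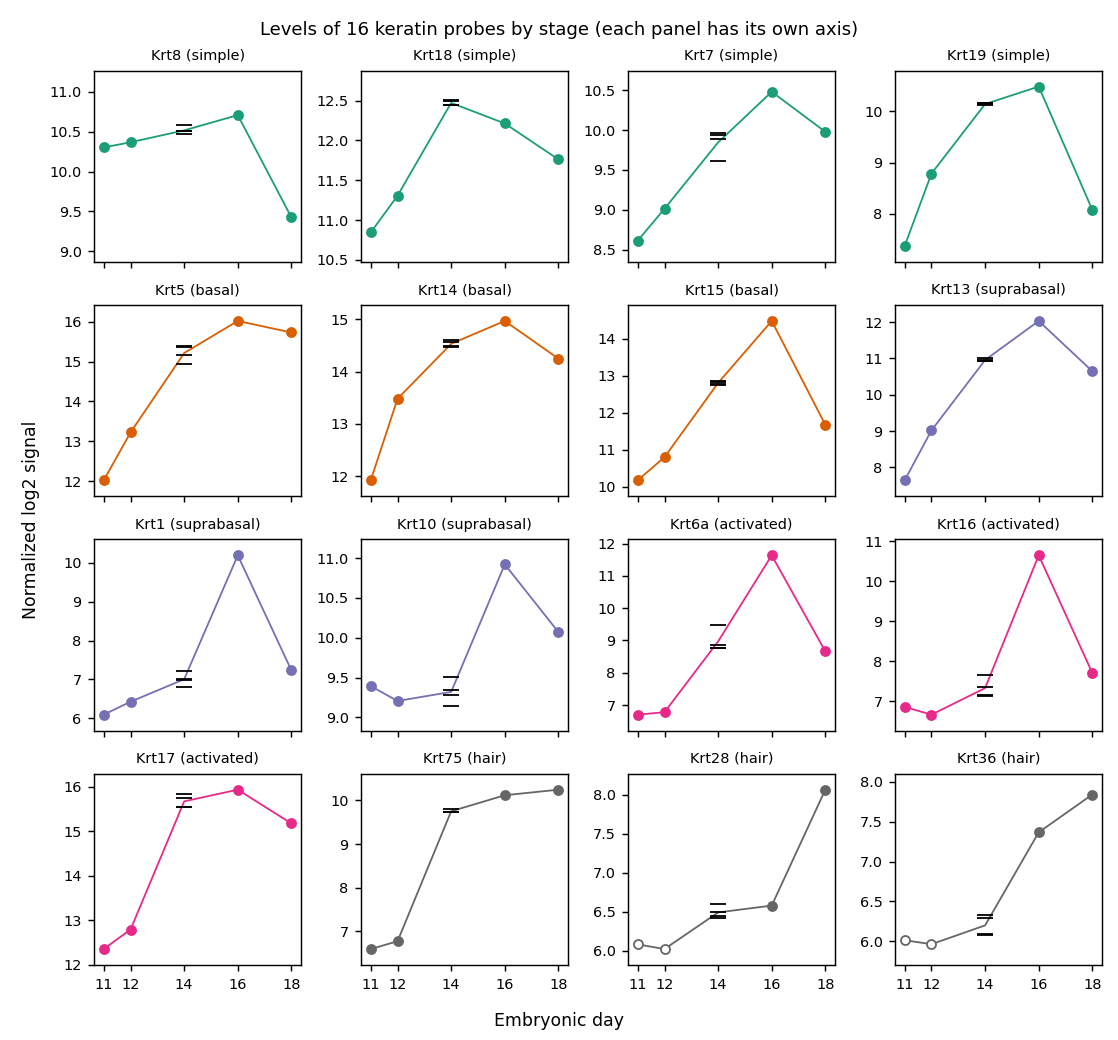
Normalised log2 signal (vertical axes, one scale per panel) of 16 keratin probes against embryonic day; points are single arrays, filled where well above background and open where not, short bars are the 4 E14 hybridisations, and the line joins their mean to the other stages. Krt8 is low at E18, Krt19 and Krt15 are low at E11, E12 and E18, Krt1 and Krt16 stand high at E16, and Krt28 is highest at E18.

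Of 8 suprabasal keratins, the 3 well above background in all 5 stages (Krt1, Krt10 and Krt13) were highest at E16. Of all genes seen that widely, 14.6% were. Krt4 was measured through E16 alone, Krt76 was not well above background at E16, and Krt80, measured through E16 and E18 alone, was highest at E18. Krt1, the type II chain of the first layer above the epidermal basal cells, had levels of 6.10 at E11, 6.43 at E12, 7.01 ± 0.18 at E14, 10.19 at E16 and 7.23 at E18. E16 stood 7.80-fold above E14 and 6.61-fold above E18. E11 and E12 lay below the lowest of the E14 hybridisations (6.80 to 7.23), and E18 lay at the top of their range. A second probe listed under the older name of Krt1 lies on the opposite strand and was near background, at -0.21 at E16. Krt10, the partner of Krt1, had levels of 9.39, 9.21, 9.32 ± 0.15, 10.92 and 10.07 at E11, E12, E14, E16 and E18, and was 2.66-fold above E14 at E16 and 1.66-fold above at E18. At E11 and at E12 Krt10 lay within the range of its E14 hybridisations. A second Krt10 probe gave 1.62 at E16 and 0.40 at E18, and -0.33 and -0.51 at E11 and E12.

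Krt4 and Krt13 form the suprabasal pair of the mouth and other internal linings. Krt13 had levels of 7.65 at E11, 9.02 at E12, 10.96 ± 0.04 at E14, 12.03 at E16 and 10.65 at E18, which is 9.71-fold below E14 at E11, 3.81-fold below at E12 and 2.02-fold above at E16. Its second, dimmer probe read -0.74, -0.53, 4.06 and -0.21 at E11, E12, E16 and E18, so the probes shared the order of the stages and differed in size. Krt4 was well above background at E16 and in no other stage, with a level of 7.89, and was at least 3.43-fold higher there than at E14. It counts as measured through that stage alone, so E16 had to be its high one. Krt80, a type II keratin of differentiating epithelia, was not well above background at E11 or E12 and was so in 1 of the 4 E14 hybridisations, that of the E16 array. It was 1.49-fold above E14 at E16 and at least 1.82-fold above at E18. Krt9, Krt12 and Krt76, known from the sole, the cornea and the palate, stayed between -0.05 and 0.12 on all arrays, near background; the Krt12 probe lies on the strand opposite to the gene's other probe. Of the 8 genes, 4 (Krt1, Krt4, Krt10 and Krt13) were at least 2-fold above E14 at E16, 1 (Krt13) was at least 2-fold below it at E11 and E12, and none was past 2-fold at E18. The shares of all genes were 2.01% above at E16, 4.88% and 2.63% below at E11 and E12, and 3.81% above and 3.86% below at E18.

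Keratins of activated and appendage epithelium, which skin makes on wounding and in the follicle, had the highest class median at E16. Krt16 had levels of 6.85 at E11, 6.66 at E12, 7.33 ± 0.24 at E14, 10.65 at E16 and 7.70 at E18, and at E16 was 7.96-fold above E14 and 6.28-fold above E18. Krt6a, a type II partner of Krt16 and Krt17, had levels of 6.70, 6.78, 8.97 ± 0.35, 11.63 and 8.66, and was 4.20-fold below E14 at E11 and 4.44-fold above it at E16. One E14 hybridisation of Krt6a, on the E16 array, read 9.49, against 8.77, 8.76 and 8.86 on the E11, E12 and E18 arrays. Krt6b had levels of 6.12, 5.98, 7.42 ± 0.14, 9.66 and 6.95, and was 2.25-fold below E14 at E11 and 4.12-fold above it at E16. Both Krt6 genes thus stood lowest before E14 and highest at E16. Krt6a and Krt6b are close copies, and whether their probes separate them was not tested. Krt17, a type I chain of early ectodermal appendages, differed from its class. Its levels were 12.35 at E11, 12.79 at E12, 15.67 ± 0.14 at E14, 15.93 at E16 and 15.17 at E18, 11.2-fold below E14 at E11, 7.74-fold below at E12, and within 1.30-fold of it at E16 and E18. Of the 4 genes, 3 (Krt6a, Krt6b and Krt17) were at least 2-fold below E14 at E11 and at E12, 3 (Krt6a, Krt6b and Krt16) were at least 2-fold above it at E16, and none was past 2-fold at E18. The shares of all genes were 4.88% and 2.63% below at E11 and E12, 2.01% above at E16, and 3.81% above and 3.86% below at E18.

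Hair and nail keratins were mostly dim, and with the offset 3 of them differed from E14 by at least 2-fold. Of the 12 measured, 1 was below at E11 and at E12 (8.33% each), where 4.88% and 2.63% of all genes were. At E16 1 was above (8.33%, all genes 2.01%), and at E18 2 were (16.7%, all genes 3.81%). Krt75, a type II chain of the follicle's companion layer, had levels of 6.59 at E11, 6.77 at E12, 9.75 ± 0.03 at E14, 10.12 at E16 and 10.25 at E18. Both early stages lay far below the E14 hybridisations (9.72 to 9.80), by 8.88-fold and 7.74-fold, and both late stages above them, by 1.25-fold and 1.42-fold. Krt28, a type I chain of the inner root sheath, was not well above background at E11 or E12 and was at least 1.33-fold and at least 1.32-fold lower there than at E14. Its level was 6.49 ± 0.08 at E14, 6.58 at E16 and 8.06 at E18, 2.75-fold above E14 at E18 and the one keratin at least 2-fold higher at E18 than at E16. Krt36, a type I hard keratin that was well above background in 1 of the 4 E14 hybridisations, was at least 2.10-fold above E14 at E16 and at least 2.85-fold above at E18, with a second probe at 0.81 and 1.16 (log2) in those stages. Krt36 counts as measured through E16 and E18 alone, so the filter favoured high values there. Of the other 9 measured members, Krt34, Krt33a, Krt32, Krt35 and Krt71 were well above background at E16 and at no other stage, at least 1.48-, 1.40-, 1.29-, 1.27- and 1.15-fold higher there than at E14. They count as measured through that stage alone, so E16 had to be their high one. The remaining Krt27, Krt33b, Krt84 and Krt87 had log2 ratios between -0.26 and 0.65, the highest being Krt27, an inner root sheath chain, at E16. Ratios of genes this dim are compressed, because 50 units were added to every signal. With the scanner's own log ratios, which carry no offset, the hair median was -0.61, -0.47, 2.04 and 0.66 at E11, E12, E16 and E18. By that measure Krt32 stood at 1.93 at E16, Krt35 at 2.16, Krt27 at 2.28, Krt71 at 2.76, Krt36 at 3.05, Krt33a at 3.66 and Krt34 at 4.04 (log2). The other hair keratins were lower at E16: Krt84 at 1.43, Krt33b at 0.54, Krt28 at 0.40, Krt75 at 0.32 and Krt87 at -1.28. Krt32, Krt33a, Krt34, Krt35 and Krt71 were well above background in E14 on no array. Their scanner ratios thus divide by a signal near background, and the median of 2.04 includes them.

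**Figure D3:**
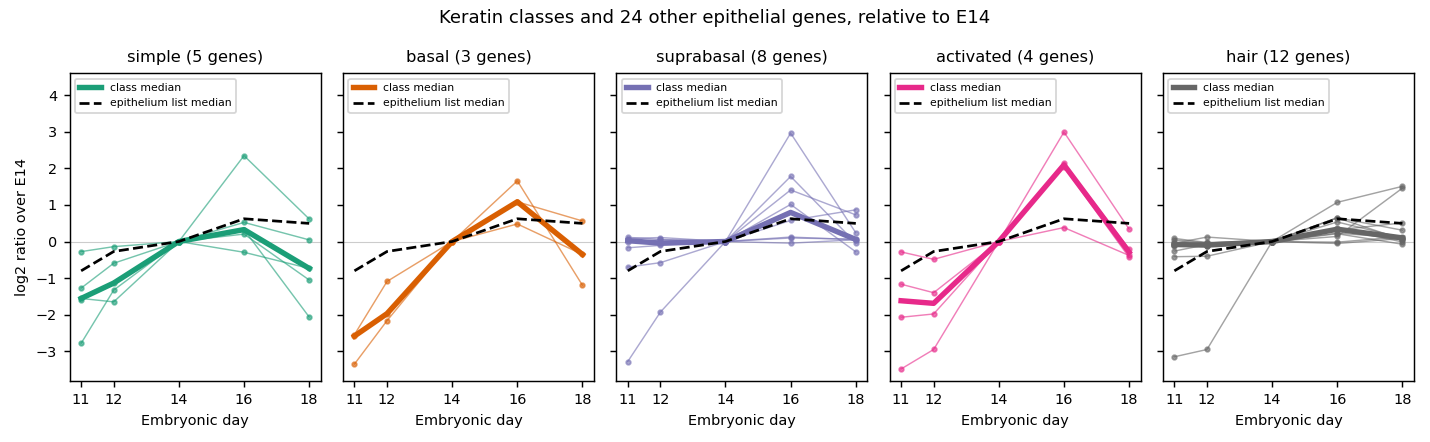
Log2 ratio over E14 (vertical axis) against embryonic day for each keratin class; thin lines are genes, the thick line is the class median, and the dashed black line is the median of 24 epithelial genes that are not keratins. The basal median lies at -2.58 at E11 and 1.09 at E16 and the activated median at 2.10 at E16, against -0.80 and 0.62 for the epithelial genes, while the hair median stays within 0.34 of 0 with the offset of 50.

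Over the whole family, 12 of 32 keratins (37.5%) were at least 2-fold below E14 at E11, where 4.88% of all genes were, and none was 2-fold above (all genes 1.6%). At E12 the count was 11 (34.4%; all genes 2.63%), the genes of E11 without Krt7, and again none was above (all genes 0.316%). At E16, 11 keratins (34.4%) were at least 2-fold above E14, against 2.01% of all genes, and none below (all genes 1.7%). The 11 include Krt4, measured through E16 alone, and Krt36, measured through E16 and E18 alone. At E18 the shares were near those of all genes: 2 keratins above (6.25%; all genes 3.81%) and 3 below (9.38%; all genes 3.86%). Centring each array on its median, in place of loess, shifted the median of all genes by 0.40, 0.64, 0.57 and 0.17 at E11, E12, E16 and E18. It gave 5 keratins below and 2 above at E12, 17 above at E16, and 1 below and 5 above at E18, where 32.5%, 24.5% and 11.6% of all genes were above. Under it Krt8 lay above E14 at E11 and E12 (0.76 and 1.07), Krt18 above it at E12 and E16 (0.21 and 0.82), Krt7 above it at E12 (0.48), Krt14 above it at E12 and E18 (0.45 and 0.64), and Krt17, Krt13 and Krt6a above it at E18 (0.73, 0.30 and 0.17).

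Pairs of stages on the same slide showed the turn more closely. Between E11 and E12, Krt19 (2.74-fold), Krt14 (2.74-fold), Krt13 (2.55-fold) and Krt5 (2.28-fold) were at least 2-fold higher at E12, which is 12.5% of keratins and 0.673% of all genes. None was lower (all genes 0.305%). Krt17 and Krt75, among the lowest of all at E11, were 1.45-fold and 1.15-fold higher at E12. At E18 against E16, 10 keratins (31.2%) were at least 2-fold lower, against 0.88% of all genes, and 1 (Krt28) was higher (3.12%; all genes 0.489%). The folds of E16 over E18 were 7.23 for Krt15, 6.61 for Krt1, 6.28 for Krt16, 5.55 for Krt6b, 5.24 for Krt19, 5.11 for Krt6a, 3.53 for Krt4 (whose E18 signal was not well above background), 3.32 for Krt23, 2.45 for Krt13 and 2.39 for Krt8. All 10 were also lower at E18 than at E16 with median centring and with the scanner's own log ratios. Krt5, Krt14 and Krt17 were within 1.78-fold between these stages. E11 and E12 shared one slide and E16 and E18 the other, so for early against late stages slide and stage cannot be told apart. Across slides, 16 of 32 keratins (50%) exceeded E12 by 2-fold or more at E16, against 4.81% of all genes. By the same measure 12 (37.5%) were higher at E18 than at E11, against 5.94%. None was lower in either comparison (all genes 1.48% and 2.52%). Krt4, measured through E16 alone, is among the 16, and among the 10 lower at E18 than at E16. Krt36, measured through E16 and E18 alone, is among the 16 and the 12, and Krt80, measured likewise, among the 12.

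**Figure D4:**
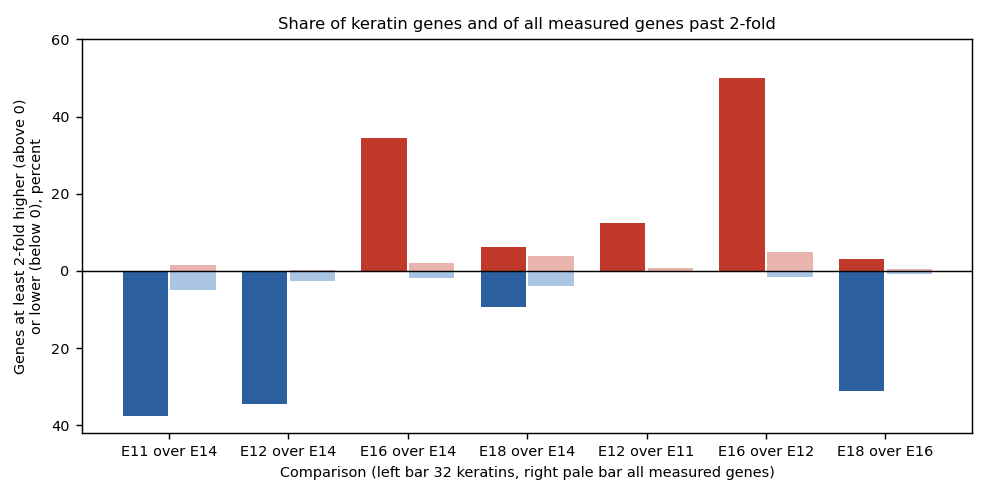
Share of the 32 keratins (dark bars) and of all measured genes (pale bars) at least 2-fold higher (red, above 0) or lower (blue, below 0) in each comparison of stages. Keratins reach 37.5% lower at E11, 34.4% higher at E16 and 31.2% lower at E18 than at E16, against 4.88%, 2.01% and 0.88% of all genes.

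A straight line on embryonic day was the one test the design allowed. In limma, with Benjamini-Hochberg adjustment over 17394 genes, 6 of 32 keratins rose (18.8%; all genes 6.28%) and none fell (all genes 2.64%), and 14 of 32 had an unadjusted p under 0.05 (43.8%; all genes 27.7%). Krt5 rose by 0.60 ± 0.10 log2 units per day (SE; adjusted p = 0.0192), Krt75 by 0.59 ± 0.06 (0.0075) and Krt17 by 0.53 ± 0.10 (0.0282). The dimmer Krt36 (0.25 ± 0.02), Krt28 (0.24 ± 0.05) and Krt80 (0.15 ± 0.02) rose with adjusted p of 0.0060, 0.0325 and 0.0067. Krt36 and Krt80 were measured through E16 and E18 alone, so the filter favoured their rise. None of the 10 keratins that were at least 2-fold lower at E18 than at E16 passed: Krt15, for example, had a slope of 0.34 ± 0.18 (adjusted p = 0.281) and Krt19 one of 0.15 ± 0.15 (0.563). With slide as a block no keratin passed, nor did any gene, and the slope stayed above 0 for Krt5 (0.028), Krt75 (0.12), Krt36 (0.17), Krt28 (0.53) and Krt80 (0.13) but not for Krt17 (-0.20). An unadjusted p under 0.05 was then found for 13 keratins (40.6%), against 3.3% of all genes. Of these, 12 had a slope below 0 and Krt28 had one above it. Among the 12 were Krt4, Krt32, Krt33a, Krt34 and Krt35, measured through E16 alone, so the filter had built in their fall from E16 to E18. The number that rose was 1 without the E11 array (Krt36; all genes 0.862%), 3 without E12 (Krt36, Krt75 and Krt80; all genes 1.76%), 15 without E16 (all genes 9.3%) and 24 without E18 (all genes 8.8%).

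**Figure D5:**
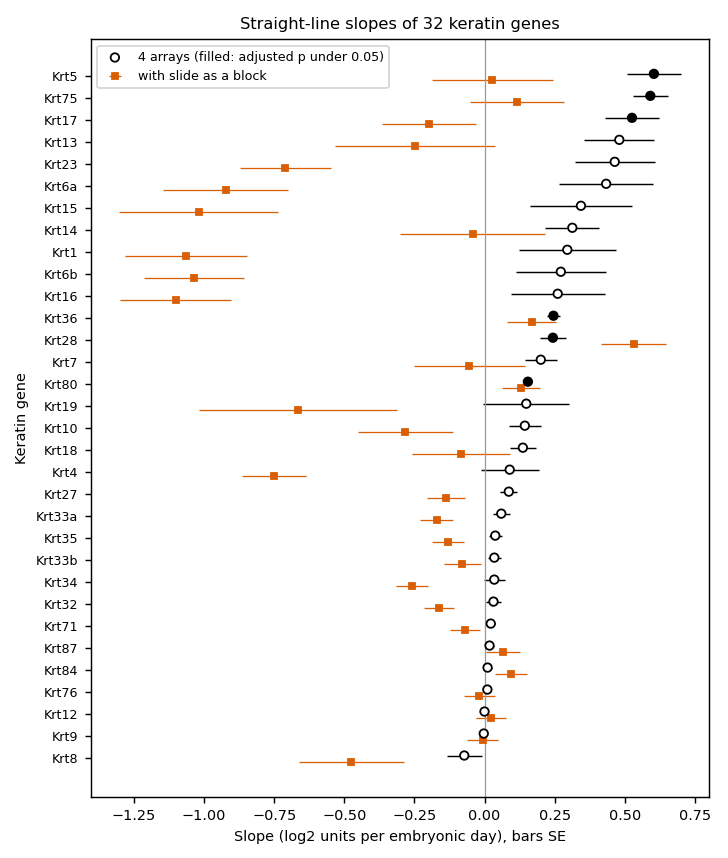
Slope in log2 units per embryonic day (horizontal axis, bars SE) of the 32 measured keratins, over the 4 arrays (circles, filled where the adjusted p was under 0.05) and with slide as a block (squares). The 6 filled circles are Krt5, Krt75, Krt17, Krt36, Krt28 and Krt80, and most squares lie below 0, Krt16 lowest at -1.10.

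The chains of a known pair did not keep the same ratio over E14. Type II minus type I, the difference in log2 ratio was -0.81, -1.07, 0.61 and 0.91 for Krt5 and Krt14 at E11, E12, E16 and E18. For Krt1 and Krt10 it was -0.81, -0.64, 1.55 and -0.49, and for Krt7 and Krt19 it was 1.51, 0.73, 0.20 and 2.11. Krt75 and Krt17 stayed closest, at 0.33, -0.00013 and -0.062 at E11, E12 and E16, with 0.89 at E18. Over the bright members of each type, the medians were -1.27 for 7 type II and -2.07 for 10 type I keratins at E11, -1.40 and -1.23 at E12, 1.09 and 0.75 at E16, and 0.045 and -0.32 at E18. Over all measured members they were -0.28 for 13 type II and -0.26 for 19 type I keratins at E11.

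The junctions that keratin filaments hang on were also low early. Of 21 measured partner genes, 9 rose with embryonic day and none fell in limma's test (all genes 6.28% and 2.64%). Their median log2 ratio was -1.39, -0.63, 0.44 and 0.21 at E11, E12, E16 and E18. Col17a1, a hemidesmosome collagen, rose by 0.63 ± 0.12 per day (adjusted p = 0.0295), Pkp1, a plaque protein of desmosomes, by 0.60 ± 0.12 (0.0361) and Dsp, which ties keratin to desmosomes, by 0.47 ± 0.11 (0.0476). The lowest slopes were those of Pkp2 (-0.03) and Tchp (-0.07), neither past the threshold. With slide as a block the slope of Col17a1 was 0.002, that of Pkp1 -0.19 and that of Dsp 0.13.

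Among 23 measured transcriptional regulators known to act on keratin genes or in keratin-making epithelia, 10 rose and 1 fell (all genes 6.28% and 2.64%). Sp6, a factor of the dental epithelium, had the steepest slope (0.90 ± 0.06, adjusted p = 0.0052; log2 ratios -3.02, -2.86, 1.64 and 2.80 at E11, E12, E16 and E18), followed by Msx2 (0.59 ± 0.07) and Cebpb (0.50 ± 0.05). Trp63, whose product p63 drives Krt5 and Krt14 in stratified epithelia, rose by 0.35 ± 0.04 per day (adjusted p = 0.0104), with log2 ratios of -1.21, -0.44, 1.09 and 1.26. Klf4 and Klf5, factors of epithelial differentiation and renewal, were at -1.86 and -1.61 at E11 and 0.36 and 0.35 at E16, and neither passed. Tfap2c, the AP-2 gamma gene, fell (-0.24 ± 0.04, adjusted p = 0.0223), and Sox2, a factor of epithelial progenitors, had a slope of -0.17 ± 0.09 (0.282) and a log2 ratio of -1.42 at E18.

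Markers of the tissues in the germ differed between stages as well, and their part in the keratin values was not tested. All 24 epithelial genes of a list without keratins were measured, with medians of -0.80, -0.27, 0.62 and 0.50 at E11, E12, E16 and E18. Of them, 12 rose, among them Lamb3 and Cdh1, and Cldn7 fell (-0.16 ± 0.04, adjusted p = 0.0476). Ehf, also among the 12, was measured through E16 and E18 alone. Over all genes 6.28% rose and 2.64% fell. Set against that median, Krt17 (-2.68), Krt5 (-2.55) and Krt13 (-2.48) stood lower at E11, Krt16 (2.37) and Krt1 (2.34) higher at E16, and Krt19 (-2.56) lower at E18. All 18 mesenchymal genes were measured too, with medians of -0.85, -0.36, -0.50 and -1.46. Of them, 2 rose (Lum, by 0.46 ± 0.04 per day, and Dcn, by 0.38 ± 0.08) and 7 fell, with the lowest slopes in Prrx1 (-0.59 ± 0.04) and Lhx8 (-0.56 ± 0.04). Of 25 names listed for the epidermis and its cornified envelope, the hard shell of skin cells, 14 were measured, with a median of 1.06 at E16 and 0.016 at E18. Of the 14, 9 were at least 2-fold above E14 at E16 (all genes 2.01%). Sprr3, among the 9, was measured through E16 alone, so E16 had to be its high stage. Ly6d and Spink5, with the steepest slopes of the list, stood at 3.77 and 3.88 at E16. Sbsn and Lce1b, with the lowest slopes, stood at 1.02 and 0.081 there, while Ivl, Flg, Cdsn and Klk7 were not measured. Of 15 hair shaft and sheath genes 7 were measured and 5 rose (all genes 6.28%), with a median of 1.26 at E18. Krtap17-1, among the 5, was measured through E16 and E18 alone, so the filter favoured its rise. Krtap17-1 stood at 3.94 and Tchh at 2.30 at E18, and Gprc5d at -0.06 and Krtap6-1 at -0.23, which had the lowest slopes. Periderm genes, 7 of 13 measured ones keratins, had a median of 0.38 at E16, muscle genes (6 of 10 measured) one of -0.12 and endothelial genes (6 of 6) one of -0.47. The other intermediate filament genes, 12 measured, had medians of 0.20, 0.12, -0.30 and -0.38 at E11, E12, E16 and E18, none rose and Iffo1 fell (-0.17 ± 0.03, adjusted p = 0.0292).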

How the data were processed

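Per the labels, pooled whole molar germs gave total RNA (Trizol), with E14 in Cy3 and each other stage in Cy5. Per the file headers, spots were quantified with Agilent Feature Extraction 10.5.1.1. The deposited scanner tables give each spot's intensity in both channels on a linear scale. The deposited value table gives log10 ratios of Cy5 over Cy3, and 100% of its values matched the scanner's own log ratio.

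Here the intensities were turned into log2 ratios from the deposited tables with limma 3.58.1 (R 4.3.3): normexp background correction (offset 50), then loess within each array with controls at weight 0. Between 92 and 126 spots with outlier flags were left out per array, and no spot was saturated. The brightest probe stood for its gene, named through a RefSeq table (GRCm38.p6). Levels come from Aquantile scaling. "At least" marks a bound for a gene seen in 1 channel only: its signal there over the dimmest signal well above background, or over its own dim signal where that was higher. The measured ratio was taken where it was smaller. Such bounds are open to dye bias. The slope on embryonic day used lmFit and eBayes with an intensity trend, adjusted by Benjamini-Hochberg over all genes, and was tested on simulated data and refitted with slide as a block.

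The text names every measured keratin 2-fold from E14 or passing the slope test, all measured simple, basal and suprabasal keratins, and up to 3 of the steepest and 2 of the lowest genes of other lists. Ivl, Flg, Cdsn, Klk7, Sprr3 and Ehf were named after their values were seen. Members, classes and lists were chosen with earlier results of these data known.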

Additional observations from a re-analysis of the deposited data

Results flagged for a closer look

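Krt6a, a keratin of activated epithelium, was the one of 17 keratins seen in E14 on all 4 arrays with a hybridisation far from the others: the E14 channel of the E16 array read 9.49, against 8.77, 8.76 and 8.86 on the E11, E12 and E18 arrays, a gap of 0.857 of the whole range. Chance gives such a gap in about 1 in 20 groups of 4.

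Krt5 and Krt23 lay below E14 at E11 and E12 and above it at E16 and E18. The log2 difference of E18 minus E11 was 3.91 for Krt5, the basal type II chain, and 2.17 for Krt23, a type I chain that was not well above background at E11 or E12. Whether the late and the early stages differ was not tested for either gene by comparing the pairs of stages, and each pair of stages lay on its own slide.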

How the results depend on the processing

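With median centring, 2 keratins were at least 2-fold above E14 and 5 below it at E12, 17 above it at E16, and 5 above and 1 below it at E18, against 0, 11, 11, 2 and 3 with loess. Of all genes, median centring put 32.5% above and 0.724% below at E12, 24.5% above at E16, and 11.6% above and 1.66% below at E18. With the scanner's own log ratios, which carry no offset, 18 were above and 1 below E14 at E16 (all genes 8.44% and 8.1%) and 6 above it at E18 (11.9%). Without the filter on dim probes 1 keratin fell with embryonic day. With slide as a block 0 rose. Leaving out 1 array gave between 1 (E11 left out) and 24 (E18 left out) rising keratins. Alternatives for the counts between other stages were added after seeing the data. With the scanner's ratios, 25 keratins were higher and 1 lower at E16 than at E12, against 16 and 0 with loess. The shares of all genes were 12% and 9.47%, against 4.81% and 1.48%. At E18 against E16, 4 were higher and 16 lower (all genes 3.66% and 6.07%), against 1 and 10 (0.489% and 0.88%). At E18 against E11, 19 were higher (all genes 13.8%), against 12 (5.94%). At E16, 13 were at least 2-fold above the 4 other stages, against 8, and the share of all genes with scanner ratios was not computed. With median centring 1 was lower at E18 than at E11 (all genes 8.92%), against 0 (2.52%). The other counts of the report's 2-fold, highest-stage and slope calls over all keratins stayed within 1.5 times of those reported under the alternatives run, which were no background correction, offset 16, the mean of a gene's probes, and eBayes without an intensity trend.

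Median centring turned the median of the simple keratins (0.21), Krt14 (0.45) and Krt18 (0.21) above E14 at E12. Slopes near 0 turned for Krt76 (-0.000064 with median centring, -0.0037 without background correction, -0.060 with scanner ratios), Krt9 (0.0049 with median centring) and Krt12 (0.00060 with offset 16). With slide as a block the slopes were -1.07 for Krt1, -0.28 for Krt10, 0.022 for Krt12, -0.25 for Krt13, -0.042 for Krt14, -1.02 for Krt15, -1.10 for Krt16, -0.20 for Krt17, -0.085 for Krt18, -0.66 for Krt19, -0.71 for Krt23, -0.14 for Krt27, -0.16 for Krt32, -0.17 for Krt33a, -0.079 for Krt33b, -0.26 for Krt34, -0.13 for Krt35, -0.75 for Krt4, -0.92 for Krt6a, -1.04 for Krt6b, -0.055 for Krt7, -0.071 for Krt71 and -0.018 for Krt76, all opposite in sign to the slopes over the 4 arrays. Leaving out 1 array in turn gave slopes that changed sign for Krt12 (-0.015 to 0.0097), Krt19 (-0.046 to 0.56), Krt84 (-0.0057 to 0.022), Krt4 (-0.0074 to 0.38), Krt8 (-0.13 to 0.093) and Krt9 (-0.0069 to 0.0014). The causes were not tested.

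No paired analysis was possible because each stage has 1 array. Pool sizes, the lack of a dye swap and 1 pool per stage limit every comparison, and signal close to background limits the hair keratins.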
